A study of Mus musculus with 96 samples.

Results

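A set of 9 genes of the EF-hand superfamily of calcium-binding proteins was followed through single neurons of the mouse lateral superior olive (LSO), an auditory brainstem nucleus that compares the sound level at both ears. They are the buffer genes Pvalb, Calb1 and Calb2, the calmodulin genes Calm2 and Calm3, and the neuronal calcium sensor genes Hpca, Hpcal1, Ncald and Ncs1. They were found by symbol through the Ensembl identifiers of Gencode vM21, and all 9 were among the 38887 genes of the expression table. In the patch-seq experiment behind the table, each neuron in an acute slice was recorded and its cytoplasm was then sucked into the pipette and sequenced as 1 library. The mice were juvenile C57BL/6J animals of both sexes in the days around hearing onset, without any genetic change or treatment, and no label says which animal a neuron came from.

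The labels divided the neurons by firing pattern. Principal neurons (pLSOs), which send the ascending output of the nucleus, carried the labels Onset (44 libraries) or Sustained (12 libraries), according to their spikes during a current step. Lateral olivocochlear neurons (LOCs), which project down to the cochlea, had 30 libraries. The 10 negative controls came from a pipette that had only touched the slice. Of the 96 libraries, 8 were left out, namely 3 Onset, 1 Sustained, 2 LOC and 2 control libraries, after the deposited values were compared with the cluster means in a supplementary table of the study. This comparison placed both controls in the mean of the pLSO cluster and the Sustained library in that of the LOC cluster. It placed the LOCs and 2 of the Onset libraries in neither mean. For the last Onset library the study lists other values under the same name. The placement is an inference from the values and is not stated by the study. The choice of libraries to leave out was thus made from the expression values themselves. It left 52 pLSOs, of which 41 were Onset and 11 Sustained, with 28 LOCs and 8 controls. Differences with all labelled neurons are given beside those without the 8 libraries.

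Calcium ions that enter a neuron through channels are caught within moments by proteins with EF-hands, loops in which side chains of acidic residues hold the ion. Parvalbumin, calbindin and calretinin are buffers that take up calcium and shape its time course, and they are widely used to tell auditory brainstem neurons apart. Calmodulin and the neuronal calcium sensors change their shape when they bind calcium and pass the signal on to kinases, phosphatases, channels and membranes.

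The first EF-hand loop found in each coding sequence is shown because such loops define the family. The loops were found with the PROSITE EF-hand pattern in the main Gencode vM21 transcript of each gene. A loop that does not match the pattern is passed over, so the first match need not be the first EF-hand of the protein. Capitals mark the first and the last codon of the loop, which code for an aspartate and a glutamate that hold the ion.
Pvalb: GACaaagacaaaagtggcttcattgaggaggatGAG
Calb1: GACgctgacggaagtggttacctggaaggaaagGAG
Calb2: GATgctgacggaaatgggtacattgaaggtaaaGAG
Calm2: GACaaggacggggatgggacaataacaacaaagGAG
Calm3: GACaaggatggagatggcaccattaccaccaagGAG
Hpca: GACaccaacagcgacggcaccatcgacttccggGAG
Hpcal1: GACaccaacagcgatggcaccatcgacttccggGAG
Ncald: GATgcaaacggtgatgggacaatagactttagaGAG
Ncs1: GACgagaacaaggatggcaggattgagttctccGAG

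The pattern matched 2 loops in Pvalb, 4 in Calb1, 5 in Calb2, 4 in each calmodulin gene and 3 in each of the 4 sensor genes. Calm2 and Calm3 encode the same protein, yet 78 of the 447 bases of their coding sequences differed, and the longest run that both share was 17 bases. Their reads could therefore be told apart in the coding sequence. The opening stretch of both is shown with the 18 differing bases of 120 in capitals.
Calm2: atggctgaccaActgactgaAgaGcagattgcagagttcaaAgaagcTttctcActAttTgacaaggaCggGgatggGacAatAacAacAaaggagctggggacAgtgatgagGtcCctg
Calm3: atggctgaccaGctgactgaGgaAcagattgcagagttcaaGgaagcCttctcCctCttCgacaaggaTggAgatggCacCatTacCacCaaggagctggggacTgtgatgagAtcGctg

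Hpca and Hpcal1 had the highest identity among the pairs of equal coding length. Their coding sequences, of 579 bases each, were identical at 86.0% of bases, and the longest shared run was 38 bases. Hpca and Ncald shared 1 run of 46 bases at an identity of 78.6%. Reads of the study were longer than such runs before trimming. Only reads cut short could therefore lie within such a run and fit either gene.

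Values are deposited TPM, a measure of transcript share that gives each library nearly the same total, in whole numbers that sum to between 999773 and 1000026 per library. A gene was taken as detected at 1 TPM or more. A neuron held between 1175 and 6276 detected genes, and the medians were 2560.5 for pLSOs and 2394 for LOCs, whereas controls held 285 to 1271. The class markers were read first. Spp1, Slc17a6 and Calca are class genes that the study chose on these neurons, so they are no independent check of the labels. Spp1 was detected in 50 of 52 pLSOs and 1 of 28 LOCs, Slc17a6 in 36 pLSOs and 7 LOCs, Calca in 15 pLSOs and 26 LOCs, and Chat in 5 LOCs and 0 of 52 pLSOs, which allows a share of up to 5.77%. The highest Calca of a pLSO kept was 58 TPM, and that of a LOC was 4484 TPM. The glycine transporter gene Slc6a5 was found in 7 pLSOs and 6 LOCs. Each group counts as 1 sample, as no animal is named, so no test between groups was possible and SDs describe the spread over neurons. A difference is the mean of log2(TPM + 1) in pLSOs less that in LOCs, and it was called at a size of 1 or more.

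The deposited TPM do not put different genes on 1 scale. The table follows the order of Ensembl identifiers, and the smallest steps between its values fit gene lengths that had been sorted from short to long instead of the length of each gene. Ribosomal protein genes, which cells use in similar amounts, show it: their log2 levels had an SD of 3.00 over 72 genes as deposited and of 1.25 once each value was rescaled to the length of its own gene. Levels of different genes were compared only after rescaling, except that summed markers of other cell types are sums of deposited TPM. Differences of single genes on the log2(TPM + 1) scale moved with it too, for Hpcal1 from 0.55 to 1.95 and for Ncald from -1.75 to -2.83 in pLSOs less LOCs, and the called genes went from 1204 to 1687.

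The steps also gave an estimate of what 1 read was worth. In a neuron of median depth, 1 read of Calb2 was worth 16.02 TPM and 1 read of Pvalb 10.5 TPM, against 0.158 TPM for Calm2 and 0.0391 TPM for Hpcal1. Values that round down are listed as 0, and for Hpcal1 this hides up to 12.8 reads, for Ncs1 9.49 and for Ncald 6.50. Detection at 1 TPM was thus much stricter for Hpcal1, Ncs1 and Ncald than for Calb2 and Pvalb. In the shallow control libraries 1 read of Pvalb was worth 213 TPM at the median.

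**Figure D1:**
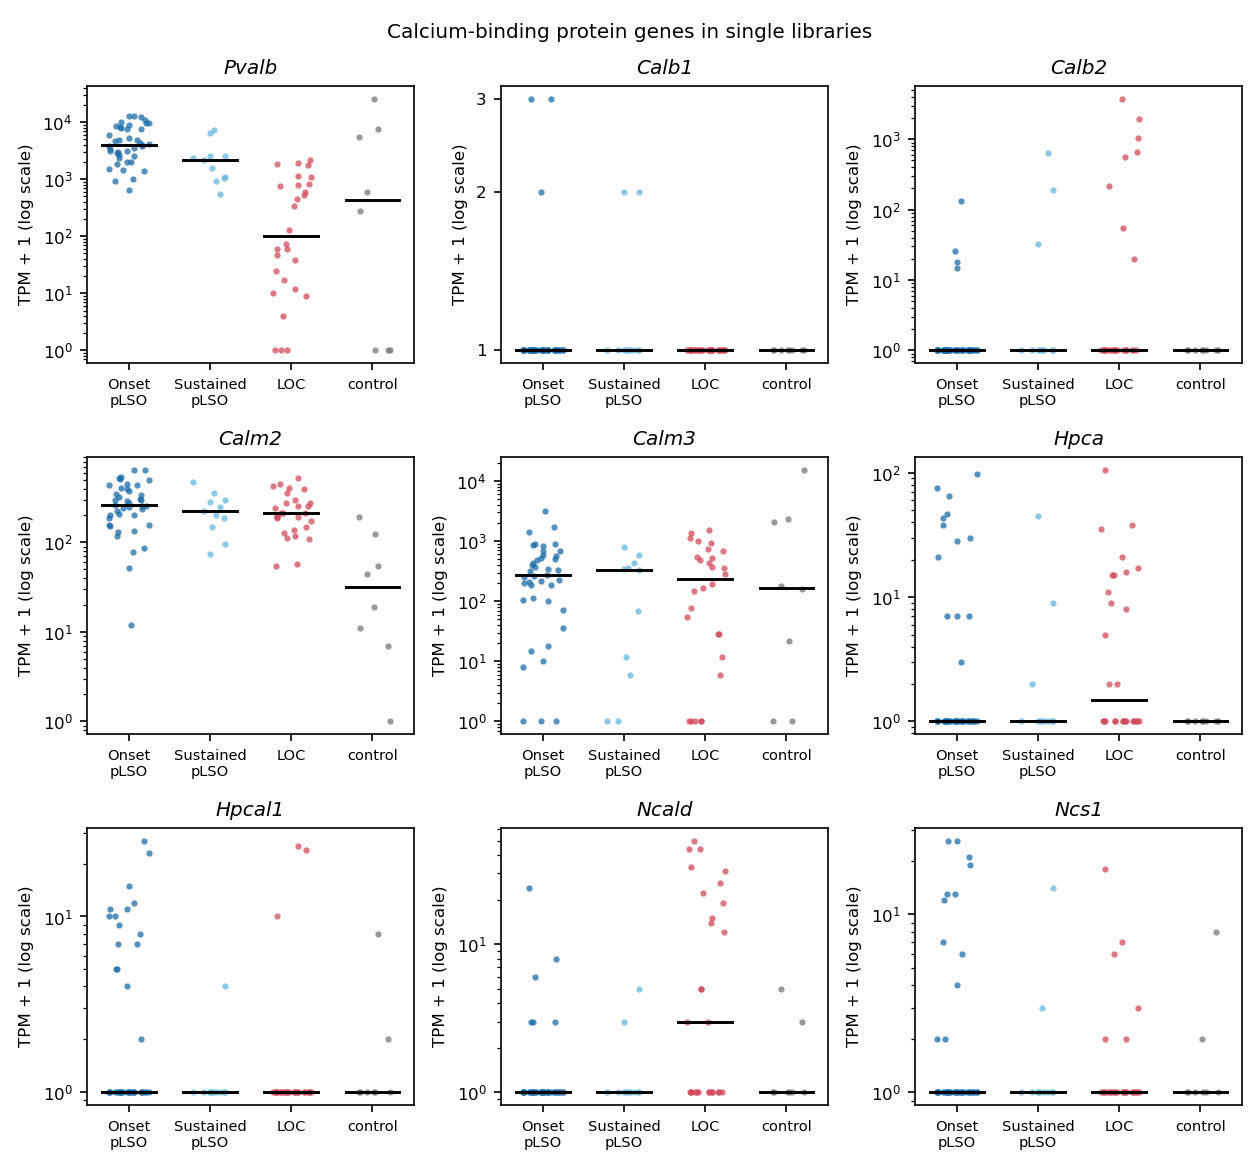
Deposited TPM + 1 on a log scale in every library, with 1 panel per gene and the groups Onset pLSO (n = 41), Sustained pLSO (n = 11), LOC (n = 28) and negative control (n = 8) along the horizontal axis. Points are libraries and bars are medians, and Pvalb lies between 556 and 12791 TPM in all pLSOs kept but between 0 and 2121 TPM in LOCs.

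Of the 9 genes, 1 was called higher in pLSOs (Pvalb) and 2 were called higher in LOCs (Calb2 and Ncald). Among all 10319 genes detected in at least 5% of the neurons, 6.99% were called higher in pLSOs and 4.68% higher in LOCs. The median difference over the 9 genes was 0.18, beside 0.07 over all genes tested. Pvalb and Ncald are also among the class genes that the study itself chose on these neurons, so their direction here is not independent evidence of it.

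Pvalb (ENSMUSG00000005716, chr15:78191114-78206400, minus strand, GRCm38), which encodes the buffer parvalbumin, was present in each of the 52 pLSOs kept. Its deposited level ran from 556 to 12791 TPM with a median of 3382 in the 52 pLSOs, and from 0 to 2121 TPM with a median of 100 in the 28 LOCs. The mean was 4607 ± 3432 TPM (SD, n = 52) in pLSOs and 522 ± 678 TPM (SD, n = 28) in LOCs, a ratio of 8.82 and a difference of 5.14. The classes overlapped between 556 and 2121 TPM, as 38 pLSOs lay above the highest LOC and 18 LOCs below the lowest pLSO. The 4 pLSO libraries left out held 0, 136 and 6296 TPM (Onset) and 12 TPM (Sustained), and the 2 LOCs left out held 103 and 1160 TPM. With all labelled neurons Pvalb was thus detected in 98.2% of pLSOs, their lowest level was 0 TPM and the difference was 4.60.

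The LOCs were spread over a wide range in Pvalb. It was detected in 25 of 28 LOCs (89.3%, exact 95% interval 71.8 to 97.7%), and 14 LOCs had 100 TPM or more. In estimated reads, 14 LOCs held at least 10, and 5 of the 25 held fewer than 1.5. Within LOCs Pvalb went up with the number of detected genes (Spearman rho 0.45, n = 28), and the 3 LOCs without it had a median of 1585 detected genes, against 2516 in the 25 with it.

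Controls held Pvalb as well. The 8 values were 0 in 3 controls and 272, 595, 5400, 7606 and 25724 TPM in the other 5, so neither a pLSO nor a LOC exceeded the highest control. In estimated reads, 3 of these 5 controls held about 1 read (1.28 to 1.30), 1 held 6.48 and 1 held 355. No pLSO kept had fewer than 47.9 estimated reads. The mean Pvalb of the controls was 4950 TPM, and 1982 TPM without the highest of them. For the pLSO marker Spp1 the 8 controls kept averaged 58.4 TPM and the pLSOs 306 TPM, and it was listed at 0 in all LOCs kept but 1. The 2 controls left out held 5065 and 417 TPM of Pvalb, and 782 and 75 TPM of Spp1. In LOCs 1 read of Spp1 was worth 0.393 TPM at the median. The part that material from outside the soma had in the Pvalb of LOCs was not tested.

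**Figure D2:**
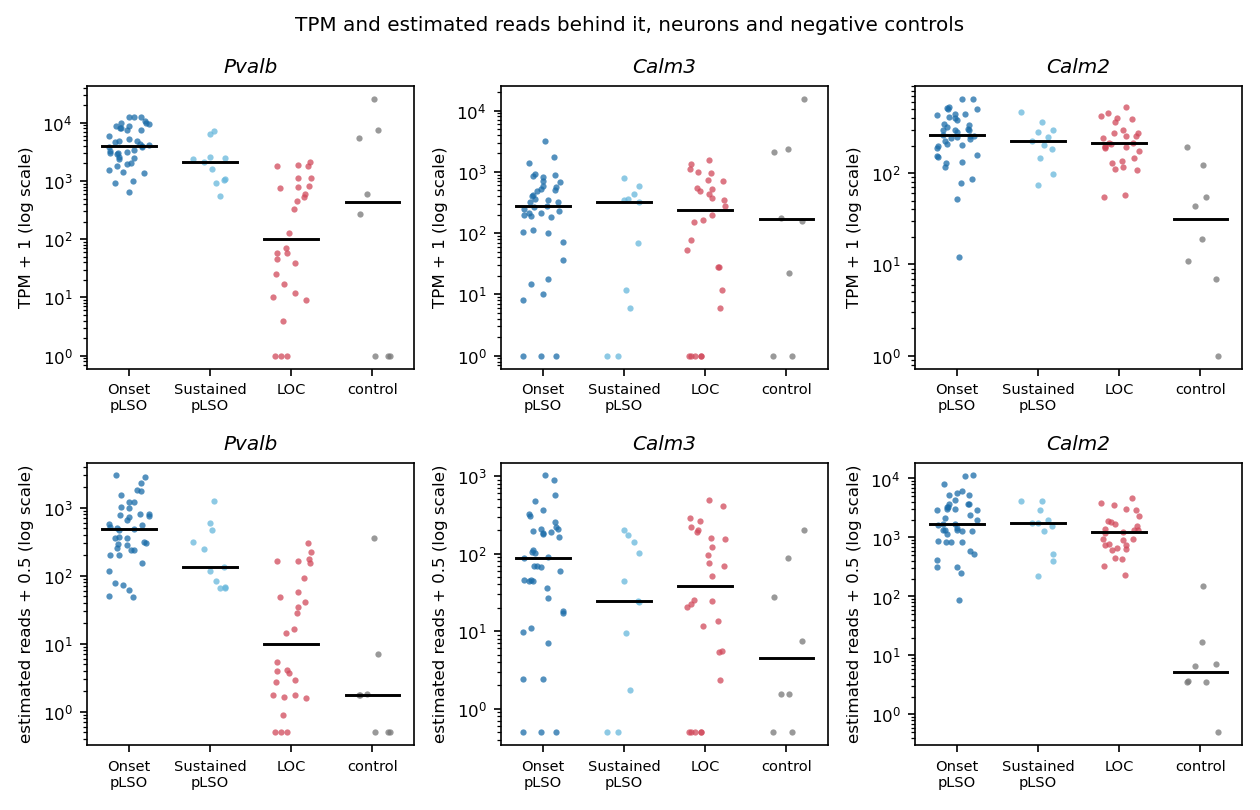
Deposited TPM + 1 (upper row) and estimated reads + 0.5 (lower row) for Pvalb, Calm3 and Calm2, on log scales, in Onset pLSOs (n = 41), Sustained pLSOs (n = 11), LOCs (n = 28) and negative controls (n = 8). Points are libraries and bars are medians, and the controls reach 25724 TPM for Pvalb and 15519 TPM for Calm3. In estimated reads their medians are 1.28 and 4.06 and their highest values 355 and 199.

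The other buffer genes were rare. Calb2 (ENSMUSG00000003657, chr8:110137502-110168210, minus strand), which encodes calretinin, was listed at 0 in most neurons of both classes. Detection was limited to 7 of 52 pLSOs (13.5%, interval 5.59 to 25.8%) and to 8 of 28 LOCs (28.6%, interval 13.2 to 48.7%). The LOC values were 19, 54, 214, 558, 662, 1031, 1973 and 3789 TPM, whereas the pLSO values were 14, 17, 25 and 131 TPM in Onset and 32, 191 and 635 TPM in Sustained neurons. The mean was 296 TPM in LOCs and 20.1 TPM in pLSOs, and without the highest neuron of each class it was 167 and 8.04 TPM. The difference was -1.67, and -1.51 with all labelled neurons.

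Depth bears on how these values read. Of the 7 pLSOs with Calb2, 3 rested on fewer than 1.5 estimated reads and 1 on 10 or more, whereas 5 of the 8 LOCs held at least 10 and the highest held 259. Calb2 was listed at 0 in all 8 controls, which allows a share of up to 37.5%. The LOC with the highest value also held Calca at 389 TPM, and Spp1 was listed at 0 in it.

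Calb2 moved with markers of oligodendrocytes. The summed deposited TPM of the 8 markers had a median of 2249 in the 8 LOCs with Calb2 and 594 in the 20 without (rho 0.39, n = 28). In pLSOs the median was 4145 in the 7 with Calb2 and 262 in the 45 without (rho 0.28, n = 52). As deposited values of different genes are not on 1 scale, this sum does not weigh the 8 markers alike. All 8 markers were detected in a control, and the sum ran from 0 to 12919 TPM in pLSOs, from 1 to 26577 TPM in LOCs and from 389 to 42992 TPM in controls, in which Calb2 was listed at 0. Of the 8 markers, 2 were called higher in LOCs.

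Calb1 (ENSMUSG00000028222, chr4:15881264-15908064, plus strand), which encodes the buffer calbindin, was nearly absent from the table's values. It was detected in 5 of 52 pLSOs (9.62%, interval 3.20 to 21.0%) at 1 or 2 TPM each, and in 0 of 28 LOCs, which allows a share of up to 10.7%. Those 5 pLSOs were deeply covered, with a median of 3827 detected genes against 2487 in the others. The difference was 0.12, or 0.08 with all labelled neurons, and all 8 controls were listed at 0.

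Co-detection followed from these shares. At 1 TPM, 42 of 52 pLSOs held Pvalb alone among the 3 buffer genes, 5 held Pvalb with Calb2, 3 held Pvalb with Calb1 and 2 held all 3. Among the 28 LOCs, 18 held Pvalb alone, 7 held Pvalb with Calb2, 1 held Calb2 alone and 2 held none of the 3. With 10 TPM as the minimum, 4 LOCs held neither Pvalb nor Calb2.

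**Figure D3:**
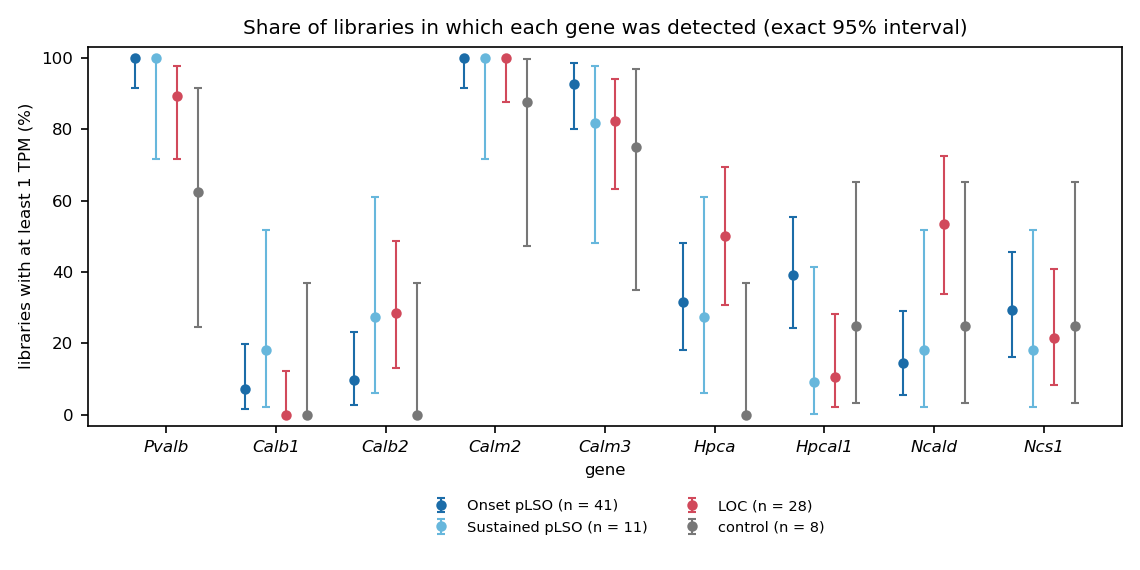
Share of libraries with at least 1 TPM of each gene, in percent, with the exact Clopper-Pearson 95% interval as bars, for Onset pLSOs (n = 41), Sustained pLSOs (n = 11), LOCs (n = 28) and negative controls (n = 8). Calm2 was at 100% in each neuron group, while Ncald reached 53.6% of LOCs and 15.4% of all pLSOs and the intervals of the small groups were wide.

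The calmodulin genes were shared by both classes. Calm2 (ENSMUSG00000036438, chr17:87433412-87446935, minus strand) was detected in all 80 neurons, from 11 to 650 TPM with a median of 255 in pLSOs and from 54 to 524 TPM with a median of 210.5 in LOCs. The mean was 279 ± 149 TPM (SD, n = 52) and 235 ± 121 TPM (SD, n = 28), a ratio of 1.19 and a difference of 0.18 that was well within the spread over neurons of either class. The ranges overlapped almost entirely, with 3 pLSOs above the highest LOC. With all labelled neurons the difference was 0.01.

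Calm2 lay further above the controls than Pvalb or Calm3. The 8 controls held 0, 6, 10, 18, 43, 54, 122 and 193 TPM, and 37 pLSOs and 16 LOCs lay above the highest of them. In estimated reads the neurons ran from 86.1 to 11307 and the median control held 4.69, although 1 control held 151.

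Calm3 (ENSMUSG00000019370, chr7:16915379-16924114, minus strand) was detected in 47 of 52 pLSOs (90.4%, interval 79.0 to 96.8%) and 23 of 28 LOCs (82.1%, interval 63.1 to 93.9%). Its level ran from 0 to 3173 TPM with a median of 296.5 in pLSOs and from 0 to 1540 TPM with a median of 237.5 in LOCs. The means of 412 ± 532 and 396 ± 448 TPM (SD, n = 52 and 28) stood at a ratio of 1.04, and the difference was 0.62, or 0.26 with all labelled neurons. Neurons without Calm3 were shallow, with a median of 1872 detected genes in pLSOs and 1927 in LOCs, against 2693 and 2597 in those with it. The highest control held 15519 TPM from 199 estimated reads, and no neuron exceeded its TPM. The median was 4.06 estimated reads over the 8 controls and 67.8 over the 80 neurons. The control with the next most estimated reads held 88.4, also above the median of the neurons.

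The calmodulin genes did not vary together from neuron to neuron. Spearman rho between Calm2 and Calm3 was 0.02 in pLSOs (n = 52) and -0.39 in LOCs (n = 28). In pLSOs Calm2 instead went with Pvalb (rho 0.56, Pearson r of log2 values 0.50, n = 52), whereas in LOCs rho was 0.12 for that pair. TPM of genes in 1 library share its total, so these values are descriptions.

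Each of the sensors was found in a minority of all neurons. Ncald (ENSMUSG00000051359, chr15:37366175-37792570, minus strand) encodes neurocalcin delta, a myristoylated sensor that moves to membranes when calcium rises. It was detected in 15 of 28 LOCs (53.6%, interval 33.9 to 72.5%) and 8 of 52 pLSOs (15.4%, interval 6.88 to 28.1%). LOC values ran from 0 to 49 TPM with a median of 2, and the 8 pLSOs held between 2 and 23 TPM. The means were 11.1 ± 15.5 TPM (SD, n = 28) in LOCs and 0.904 ± 3.41 TPM (SD, n = 52) in pLSOs, a ratio of 12.3 in favour of LOCs and a difference of -1.75.

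Estimated reads of Ncald are high wherever it is detected, in part because up to 6.50 reads are listed at 0 in a neuron of median depth. The lowest read counts below are thus set partly by the scale. Each of the 15 LOCs held at least 13.03 estimated reads, with a median of 110 and a maximum of 1132. By TPM, 11 of them exceeded the highest control, which held 4 TPM from 1.19 estimated reads. The most estimated reads in a control were 4.46, at 2 TPM. The 8 pLSOs with Ncald held 12.6 to 241 estimated reads and had a median of 3624.5 detected genes, against 2476.5 in the other 44. With all labelled neurons the difference was -1.63.

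Hpca (ENSMUSG00000028785, chr4:129111570-129122036, minus strand) encodes hippocalcin, a sensor best known from hippocampal neurons. Its share was 16 of 52 pLSOs (30.8%, interval 18.7 to 45.1%) and 14 of 28 LOCs (50.0%, interval 30.6 to 69.4%), and none of the 8 controls held it, which allows a share of up to 37.5%. Where it was detected it ran from 1 to 96 TPM in pLSOs and from 1 to 105 TPM in LOCs. The means of 9.77 ± 21.3 and 10.2 ± 21.2 TPM (SD, n = 52 and 28) differed by far less than their SDs, and the difference was -0.51, or -0.52 with all labelled neurons.

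In LOCs Hpca moved with markers of microglia. The summed deposited TPM of the 8 markers had a median of 365.5 in the 14 LOCs with Hpca and 3 in the 14 without (rho 0.43, n = 28). In the 52 pLSOs rho was 0.06. Again, such a sum does not weigh the 8 markers alike. The sum ran from 0 to 2760 TPM in LOCs, from 0 to 5702 TPM in pLSOs and from 0 to 7515 TPM in controls, in which 4 of the 8 markers were detected and Hpca was listed at 0. Of the 8 markers, Tmem119 was at 0 in all 28 LOCs and Cx3cr1 in all but 1, so in nearly all LOCs the sum came from other markers of the list. Those are not given singly here. The part of microglial RNA in the Hpca values was not tested.

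Hpcal1 (ENSMUSG00000071379, chr12:17690856-17791933, plus strand) encodes the hippocalcin-like sensor also called VILIP-3. The gene was found in 17 of 52 pLSOs (32.7%, interval 20.3 to 47.1%) and 3 of 28 LOCs (10.7%, interval 2.27 to 28.2%). The 3 LOC values were 9, 23 and 24 TPM, and the highest pLSO held 26 TPM. The means were 2.94 ± 5.64 and 2.00 ± 6.31 TPM (SD, n = 52 and 28), with a difference of 0.55 that was not called on the deposited scale but reached 1.95 after rescaling, and was 0.36 with all labelled neurons. Without the highest neuron of each class the means were 2.49 and 1.19 TPM. Controls held 0 in 6 libraries and 1 and 7 TPM in the other 2.

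Ncs1 (ENSMUSG00000062661, chr2:31245823-31295989, plus strand) encodes neuronal calcium sensor 1, which also binds a Golgi kinase and Kv4 channels. Of the pLSOs 14 of 52 held it (26.9%, interval 15.6 to 41.02%) and of the LOCs 6 of 28 (21.4%, interval 8.30 to 40.95%), up to 25 and 17 TPM. The means were 2.96 ± 6.53 and 1.14 ± 3.44 TPM (SD, n = 52 and 28), or 2.53 and 0.556 TPM without the highest neuron of each class. The difference was 0.37, and 0.28 with all labelled neurons. Controls held 0 in 6 libraries and 1 and 7 TPM in the other 2.

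At least 1 of the 4 sensors was detected in 32 of 52 pLSOs and in 23 of 28 LOCs. In pLSOs the most frequent pair was Hpcal1 with Ncs1, found together in 8 neurons, and in LOCs it was Hpca with Ncald, also found together in 8. Ncald occurred with Calb2 in 6 LOCs and 2 pLSOs.

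Order between the genes was read only after rescaling. The mean rescaled TPM over the 80 neurons was 6390 for Calm2, 1708 for Pvalb, 232 for Hpcal1, 216 for Calm3, 55.4 for Hpca, 53.4 for Ncs1, 35.9 for Ncald, 21.6 for Calb2 and 0.327 for Calb1. Calm2 stood at rank 7 among all genes on this scale and at rank 716 as deposited, while Pvalb stood at 45 and 31. The SD over neurons exceeded the distance to the next gene from Pvalb downward, so the order of Hpcal1 and Calm3 and that of Hpca, Ncs1, Ncald and Calb2 were not separated by the spread over neurons. Calm2 and then Pvalb stood highest in each class, but the rescaled mean of Pvalb was 2484 in pLSOs and 268 in LOCs, the latter close to the 184 of Calm3 and the 165 of Hpcal1. Hpcal1 stood above Calm3 in pLSOs (268 and 233) and below it in LOCs, and Ncald stood above Hpca in LOCs (87.1 and 49.3) and below it in pLSOs (8.32 and 58.6).

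**Figure D4:**
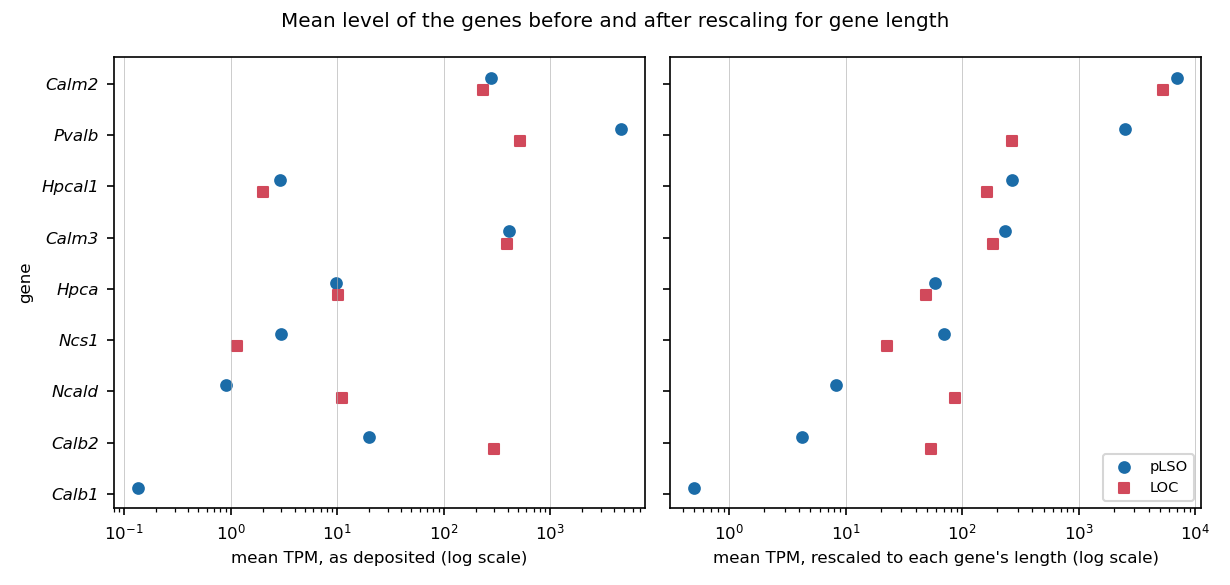
Mean TPM of each gene in pLSOs (circles, n = 52) and LOCs (squares, n = 28), as deposited on the left and rescaled to the length of each gene on the right, both on log scales. Calm2 moves from 279 to 6971 TPM in pLSOs and Calb2 from 296 to 54.0 TPM in LOCs. The ratio of the pLSO mean to the LOC mean changes less, for Pvalb from 8.82 to 9.28, but for Hpca it turns from 0.956 to 1.19. Calb1 has no LOC symbol because it was listed at 0 there.

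Onset and Sustained pLSOs were compared by the same measure, Onset minus Sustained, with 11 Sustained neurons at hand. Of the 9 genes, Pvalb, Calm3 and Hpcal1 were called higher in Onset and Calb2 higher in Sustained neurons. Over all 10319 genes, 4.78% were called higher in Onset and 10.3% higher in Sustained neurons. The median difference was 0.45 over the 9 genes and -0.07 over all genes tested.

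Pvalb ran from 652 to 12791 TPM with a median of 3972 in Onset neurons, and from 556 to 7189 TPM with a median of 2129 in Sustained neurons. The mean of 5153 ± 3516 TPM (SD, n = 41) was 2.00 times that of 2575 ± 2199 TPM (SD, n = 11), and the difference was 1.05, or 1.28 with all labelled neurons. The groups overlapped over most of their range, with 13 Onset neurons above the highest Sustained neuron and 1 Sustained neuron below the lowest Onset neuron. In estimated reads the medians were 494 and 135. Spp1, a marker of pLSOs, was also higher in Onset neurons, at a mean of 341 TPM against 177 TPM.

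Hpcal1 was detected in 16 of 41 Onset neurons (39.02%, interval 24.2 to 55.5%), at 1 to 26 TPM, and in 1 of 11 Sustained neurons (9.09%, interval 0.230 to 41.3%), at 3 TPM. The difference was 1.03, and 0.96 with all labelled neurons, which is below the size for a call. Calm3 had medians of 271 TPM in Onset and 326 TPM in Sustained neurons but was listed at 0 in 3 of 41 and 2 of 11, and its difference of 1.47 (1.27 with all labelled neurons) had a sign opposite to that of the medians. Calb2 had a difference of -1.51 that rested on 3 Sustained and 4 Onset neurons and was -0.94 without the highest neuron of each group and -1.32 with all labelled neurons.

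The remaining members were not called between the firing patterns. Calm2 ran from 11 to 650 TPM in Onset and from 73 to 470 TPM in Sustained neurons, and its difference was 0.20, or -0.02 with all labelled neurons. Those of Hpca, Ncs1, Ncald and Calb1 were 0.57, 0.45, 0.01 and -0.08, and with all labelled neurons that of Hpca was 0.01.

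Other genes of the calcium pathway were taken from 8 lists drawn up around the 9 genes, and the comparison of pLSOs with LOCs was repeated on them. Called genes were few in each list and went in different directions from list to list. Of the calcineurin list 2 of 6 tested genes and of the list of calmodulin-dependent cyclases, phosphodiesterases and NO synthase 2 of 6 were called higher in pLSOs, and none higher in LOCs. Of the calmodulin-dependent kinases 3 of 12 and of the S100 proteins 2 of 7 were called higher in LOCs, and none higher in pLSOs. These stand beside 6.99% and 4.68% of all genes tested.

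**Figure D5:**
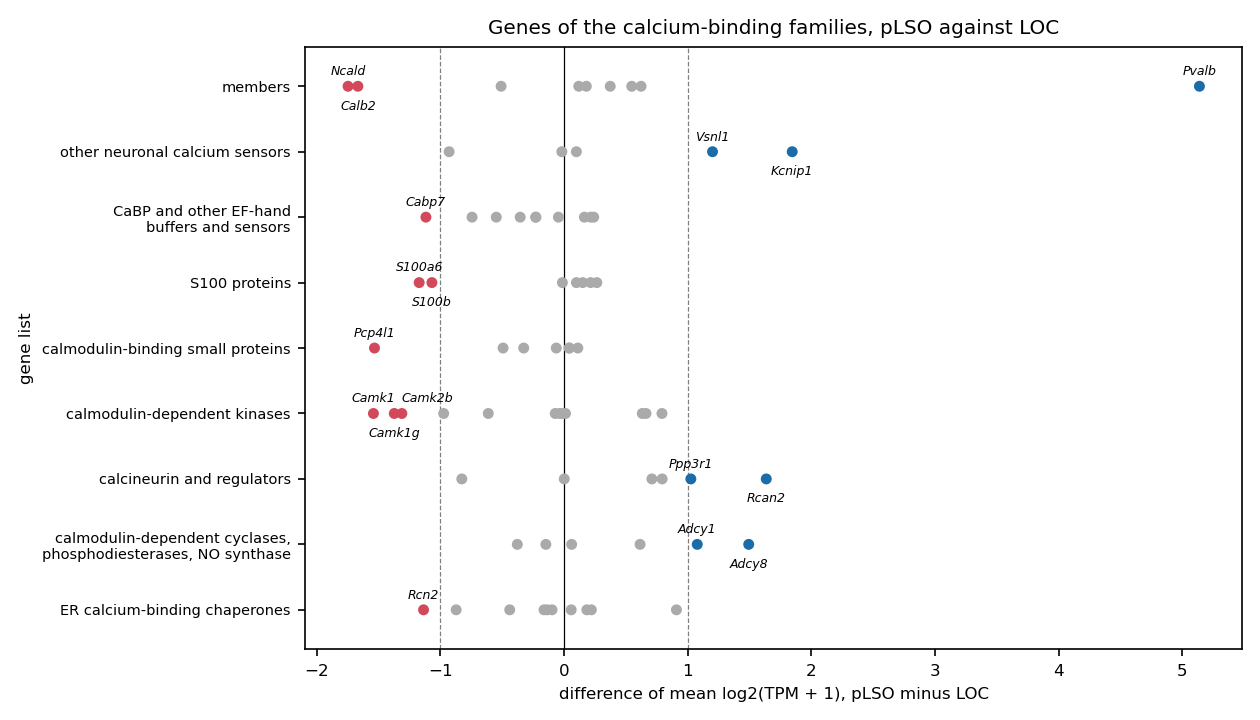
Mean log2(TPM + 1) in pLSOs less that in LOCs, for each tested gene (point) of the 9 calcium-binding genes (top line, "members") and of 8 related lists. Blue points lie at 1 or above and red points at -1 or below (dashed lines), and Pvalb at 5.14 stands apart from the called list genes, which reach from -1.54 for Camk1 to 1.85 for Kcnip1.

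Among the other neuronal calcium sensors, 2 of 5 tested genes were called higher in pLSOs. Kcnip1 encodes a KChIP, a subunit that binds Kv4 channels, and was detected in 27 of 52 pLSOs at a mean of 9.58 TPM but in 1 of 28 LOCs. Vsnl1, which encodes visinin-like protein 1, was detected in 42 pLSOs and 16 LOCs, at means of 8.02 and 3.43 TPM and a difference of 1.20. Both were named after their values were seen, as their means lay under 10 TPM. Hpcal4 was not called, with a difference of -0.93 and detection in 1 pLSO and 7 LOCs.

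Downstream of calmodulin, the phosphatase calcineurin and the calmodulin-dependent cyclases had their called genes in pLSOs. Rcan2, a regulator of calcineurin, was detected in 32 pLSOs and 8 LOCs at means of 19.8 and 7.46 TPM and a difference of 1.64. Ppp3r1, the calcium-binding subunit of calcineurin, had means of 11.5 and 5.29 TPM and a difference of 1.03. The cyclase gene Adcy8 was detected in 14 pLSOs at a mean of 43.3 TPM and in 1 LOC. Adcy1 had means of 115 and 61.9 TPM and a difference of 1.08, beside a mean of 154 TPM in controls that came from 2 of the 8.

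The kinases with a call were those of higher level in LOCs. Camk1, which encodes calmodulin-dependent kinase I, was detected in 17 of 28 LOCs and 18 of 52 pLSOs at means of 48.0 and 14.9 TPM and a difference of -1.54. Camk1g was detected in 6 LOCs and 5 pLSOs, at means of 168 and 21.5 TPM, or 125 and 1.71 TPM without the highest neuron of each class. Camk2b had means of 7.68 TPM in LOCs and 2.44 TPM in pLSOs and was named after its values were seen. Pcp4l1, a small protein related to the calmodulin binder PCP4, was detected in 15 LOCs and 9 pLSOs at means of 13.7 and 2.33 TPM, and was the 1 called gene of 7 in its list.

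The remaining buffers and chaperones gave 4 called genes, all higher in LOCs. S100a6 was detected in 4 LOCs and 3 pLSOs, and Cabp7 in 6 LOCs and 4 pLSOs at means of 169 and 0.596 TPM, or 56.9 and 0.235 TPM without the highest neuron of each class. S100b, an astrocyte and oligodendrocyte gene, had means of 19.1 TPM in LOCs, 7.13 TPM in pLSOs and 342 TPM in controls, in which 5 of 8 held it. The reticulocalbin gene Rcn2 had means of 45.3 TPM in LOCs and 19.5 TPM in pLSOs and was the 1 called gene among 10 calcium-binding chaperones of the endoplasmic reticulum.

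The electrophysiological features in the labels allowed the level of a member to be set beside the behaviour of the same neuron. For the 6 members found in at least 25% of the neurons of a class, 96 pairs of a member and 1 of 16 features were computed in each class. In pLSOs no pair reached a Spearman rho of 0.4 in size, and the highest was -0.39 between Calm2 and the amplitude of spontaneous inhibitory currents (Pearson r -0.30, n = 51). Pvalb and the rheobase gave 0.31 in pLSOs (r 0.27, n = 52), and 0.26 without the 2 neurons farthest from the median rheobase.

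In LOCs 6 of the 96 pairs reached 0.4 in size, and 4 of 93 with all labelled neurons. No share of such pairs over all genes stands beside this count, so it is not read as a result about these members. The pairs are listed as descriptions. Hpca went with the resting potential (rho 0.59, r 0.50, n = 19) and ran against the rise time of spontaneous inhibitory currents (rho -0.49, r -0.39, n = 27) and of spontaneous excitatory currents (rho -0.41, r -0.39, n = 28). Calb2 went with the amplitude of the action potential (rho 0.48, r 0.43, n = 28) and with the sag amplitude (rho 0.47, r 0.45, n = 28), and Calm2 with the resting potential (rho 0.44, r 0.56, n = 19). Without the 2 neurons farthest from the median of the feature, rho was 0.52, -0.50 and -0.34 for the pairs of Hpca, 0.46 and 0.45 for those of Calb2 and 0.37 for Calm2, in the same order. Calb2 was at 0 in 20 of these 28 neurons, and Hpca moved with the microglia markers named above. Neurons of 1 animal cannot be told apart here, and depth and detection enter each of these values.

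The genes with the pattern most like each member were found by Pearson r of log2(TPM + 1) over the 80 neurons, among 3815 genes detected in at least 25% of them. For Pvalb these were Spp1 (0.66), Lpgat1 (0.65) and Sparcl1 (0.63), and r with Spp1 was 0.18 within pLSOs and 0.23 within LOCs. For Ncald they were Atp8a1 (0.62), Anxa2 (0.59) and Acly (0.52). Near Calb2 stood Apod (0.47) and Gm10800 (0.47), and with Apod the value was 0.46 within pLSOs and 0.49 within LOCs.

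The calmodulin genes had different genes nearest to them. For Calm2 these were Gm38393 (0.55), the unnamed gene ENSMUSG00000095746 (0.42) and Bex3 (0.39), and for Calm3 Cox6a1 (0.56), Trim37 (0.54) and Rps24 (0.53). Among the sensors, Hpca was nearest to Hcfc1r1 (0.47), Mrps21 (0.46) and Hnrnph2 (0.41), Hpcal1 to Ak1 (0.46), Spast (0.44) and Atg4b (0.43), and Ncs1 to Mtss1 (0.51), Smg1 (0.41) and Golga5 (0.41). For Calb1, with 5 neurons above 0, they were Slc9a3r2 (0.49), Shisa5 (0.47) and Pgs1 (0.47).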

How the data were processed

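Patch-seq libraries of single LSO neurons and of negative controls were made by the authors with a modified Smart-seq2 protocol. Per the labels, reads were trimmed with Trim Galore 0.4.2, aligned with STAR to mm10, searched for duplicates with Picard 1.115 and counted per gene with featureCounts. The score values of the deposited table are the authors' TPM, rounded to whole numbers. Read counts were not used here, and the depth is known only through the estimate from the steps between low values.

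Gencode vM21 (GRCm38) gave names, positions, lengths and coding sequences, and 37570 of the 38887 identifiers were found in it. TPM were rescaled as follows. The length behind each row was taken from the smallest steps of the values in the first 1700 rows and from the sorted gene lengths, less 78 bases, in later rows. Each value was multiplied by that length, divided by the length of its own gene and scaled back to the same total per library. Both the calls and the rescaling were also run on simulated data built with the same estimated lengths. Such data cannot show whether the deposited values were made with sorted lengths.

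Groups follow the firing pattern label. No library column of other samples was used. Shares carry exact Clopper-Pearson 95% intervals, and for 0 of n neurons the limit is 3 over n. Both cover counting error only. Differences used a pseudocount of 1 and were called at 1 among genes detected in at least 5% of the neurons. Named were all 9 genes, from each related list up to 4 called genes with a mean of at least 10 TPM in a class, and the 3 genes most like each member, of which 1 is not reported here. The members and lists were chosen with earlier results of these data known. Alternatives covered the libraries, the pseudocount, the summary of a group, the scaling, the depth, the threshold and the filter. The tools were Python 3.11.15, NumPy 2.4.6, scikit-learn 1.9.0, pandas 2.3.3, matplotlib 3.10.9 and SciPy 1.17.1.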

Additional observations from a re-analysis of the deposited data

Results flagged for a closer look

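In 4 genes the highest of the 8 controls stood far from the next by Dixon's criterion, with 25724 TPM for Pvalb, 15519 TPM for Calm3, 7 TPM for Hpcal1 and 7 TPM for Ncs1. The criterion is made for normal values, and these controls hold many values of 0, so how often it flags a gap by chance is not known here. Of the 9 genes looked at, Calb1, Calb2 and Hpca were listed at 0 in all 8 controls and could not be flagged.

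Libraries left out of the comparisons held members above the highest control kept. The Sustained library left out held 78 TPM of Hpca, 210 TPM of Calm2 and 1887 TPM of the LOC marker Calca. A LOC left out held 20 TPM of Hpca and 1 TPM of Calb1, while Calb1 was listed at 0 in all 28 LOCs kept. The other LOC left out held 21 TPM of Hpcal1 and 244 TPM of Calm2, and an Onset library left out held 5 TPM of Calb2. The 2 controls left out held 286 and 206 TPM of Calm2, and 1 of them held 18 TPM of Hpcal1 and 15 TPM of Ncs1 with 3104 detected genes.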

How the results depend on the processing

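No called difference of a member changed sign under any of 125 alternatives, and 110 kept both the sign and the side of the size for a call. Calls were lost in 6 and gained in 6, and the sign of an uncalled difference turned in 3 (Onset minus Sustained of Calm2 with all labelled neurons and of Ncald with a pseudocount of 0.1 and after rescaling). For Ncald in pLSOs against LOCs, the log2 ratio of mean TPM was -3.62, and with a pseudocount of 10 the difference was -0.68 and no longer called. Between Onset and Sustained neurons, the ratio of means gave 3.75 for Hpcal1, 0.76 for Calm3, which lost its call, and -0.58 for Calb1, and rescaling gave 2.94 for Hpcal1. The calls of Hpcal1 and Calb2 between Onset and Sustained were lost with a pseudocount of 10 (0.31 and -0.93), that of Hpcal1 with all labelled neurons (0.96) and that of Calb2 without the highest neuron of each group (-0.94). Between pLSOs and LOCs, calls were gained by Hpca (-1.09) and Hpcal1 (1.21) with a pseudocount of 0.1, by Hpcal1 after rescaling (1.95) and by Ncs1 by the ratio of means (1.37), and between Onset and Sustained by Hpca (1.20) and Ncs1 (1.31) by the ratio of means. Rescaling moved the median of all genes from 0.07 to 0.14 for pLSOs minus LOCs and from -0.07 to -0.12 for Onset minus Sustained. The causes were not tested.

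The number of called genes followed the pseudocount and the summary. For pLSOs against LOCs it was 1204 (721 higher in pLSOs and 483 in LOCs), 2490 (1521 and 969) with a pseudocount of 0.1, 385 (221 and 164) with 10 and 4882 (2684 and 2198) by the ratio of means, with 819 higher in LOCs in the 60 neurons with the most detected genes and 308 in genes found in at least 25% of neurons. For Onset against Sustained it was 1559 in all, with 1066 higher in Sustained neurons, 3174 (1009 and 2165), 521 (159 and 362) and 4854 (2522 and 2332) in the same order, and 998, of which 613 higher in Sustained neurons, in genes found in at least 25% of neurons.

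Of 108 alternative shares 14 lay outside the interval. At 10 TPM, Calb1 fell to 0% in pLSOs and in both firing patterns, Hpcal1 was at 11.5% of pLSOs, 14.6% of Onset and 0% of Sustained neurons, Ncald at 1.92%, 2.44% and 0% of the same, and Ncs1 at 15.4% of pLSOs and 3.57% of LOCs. In those 60 neurons Calm3 was at 97.6% of pLSOs, 94.4% of LOCs and 100% of Onset neurons. The LOCs with neither Pvalb nor Calb2 numbered 4 at 10 TPM, and with all labelled neurons 1 gene in place of 2 of the cyclase list was called higher in pLSOs. No paired analysis was possible because no label ties neurons of different groups to 1 animal or day, and replicate numbers only name libraries. Depth limits the low values most, since 1 read of Calb2 or Pvalb was worth more than 10 TPM while several reads of Hpcal1, Ncs1 and Ncald are listed at 0.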
